A study of Mus musculus with 21 samples.

Results

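A set of 10 mouse genes of cell-cell junctions were followed: the classical cadherin genes Cdh1 (E-cadherin) and Cdh3 (P-cadherin), Epcam, and the tight junction genes Cldn1, Cldn4, Cldn7, Ocln, F11r, Tjp1 and Cgn. They were chosen by name, and all 10 were found among the 23713 genes of the deposited count table. RNA had been sequenced in bulk from keratinocytes of tail skin, in 21 libraries. The labels name models of basal cell carcinoma (BCC), a skin tumour with an active Hedgehog pathway: SmoM2 (batch A, 29 days after tumour induction), Gnas-eKO (batch B, 42 days) and PKI (batch C, 57 days). Each had 3 libraries of control mice with tumour-free epidermis (Con) and 4 of tumour mice (BCC). SmoM2 is an activated form of the Hedgehog pathway protein Smoothened. KO in Gnas-eKO stands for a knockout of Gnas, whose product, a G protein alpha subunit, raises cAMP. PKI names an inhibitor of protein kinase A. The labels give no promoter, Cre driver, strain, age of the animals or inducing agent, and do not say whether the controls carry any of the alleles. Model, batch and sampling day change together and cannot be told apart, so BCC was set against Con within a model.

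Classical cadherins are single-pass membrane proteins whose outer domains bind the same cadherin on the next cell and whose tails hold beta-catenin or plakoglobin and, through alpha-catenin, actin. Together they form the adherens junction, and in epidermis E-cadherin is made in all living layers while P-cadherin marks basal cells and the lower hair follicle and its germ. EpCAM is an epithelial adhesion protein that binds claudins. Tight junctions seal the upper granular layer of the epidermis: claudins and occludin cross the membrane, junctional adhesion molecule A (from F11r) sits beside them, and the plaque proteins ZO-1 (from Tjp1) and cingulin (from Cgn) lie underneath.

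Library totals ranged from 16645858 to 22251132 counts. Group means of the keratinocyte marker Krt5 lay between 10428 and 16703 CPM (counts scaled to a common library size). The summed level of 10 keratinocyte markers was 32925 to 78090 CPM over all libraries. In SmoM2 it was lower in BCC (41705 to 56383) than in Con (60827 to 78075). In Gnas-eKO it was also lower in BCC (32925 to 54925) than in Con (61893 to 73420). The PKI groups overlapped. Gnas ranged from 172 to 178 CPM in Gnas-eKO Con and from 51.1 to 115 CPM in Gnas-eKO BCC (log2 fold change −1.11, adjusted p 0.0647 in edgeR, not past the threshold). One library stood apart: on the first principal component of all expressed genes Gnas-eKO BCC replicate 2 lay at −20.4, the other 11 BCC libraries between 32.4 and 59.4 and the 9 Con libraries between −57.2 and −40.4. Its summed level of 7 hair germ and placode markers was 228 CPM. The other 3 Gnas-eKO BCC libraries had 362 to 743 CPM and Gnas-eKO Con 143 to 183. Of Hedgehog pathway genes, its Gli1 level was 9.64 CPM (153 to 281 in the other BCC libraries, 4.75 to 9.96 in Con). Its Ptch1 level was 270 CPM (315 to 932 in the other BCC libraries, 30.0 to 39.0 in Con). Gnas-eKO fold changes of 9 of the 10 genes (Cldn7 was not tested), and other Gnas-eKO calls named here that change, are therefore also given without it. Replicate 2 was picked from these same data, as the BCC library nearest to Con on that component. No value without it is therefore independent support. In the headers, animal names of SmoM2 BCC carry another prefix than those of SmoM2 Con. Nothing says what it marks, so a difference in the origin of the SmoM2 mice and the tumour cannot be told apart.

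Promoter sequences are shown for the 3 tested genes whose BCC levels lay above Con in each model (Epcam, Cldn1 and F11r) and for the one with the largest fall (Cgn). Cldn7, near the limit of counting, also lay above Con in each model but was not tested. RefSeq windows (GRCm38.p6) of 300 bases, from 250 bases before the start site to 50 after it, were found for 8 of the 10 genes, some with 2 start sites. They were searched on both strands for CACCTG, a core bound by the Snail and Zeb repressors, AACCGGTT, bound by Grainyhead-like factors, GACCACCCA, bound by Gli factors, and TGANTCA, bound by AP-1. Of 32851 promoter windows of that length, 20.2% hold CACCTG, 0.146% AACCGGTT, 0.253% GACCACCCA and 7.81% TGANTCA. Matches are in capitals, and a match on the minus strand reads CAGGTG. The windows are Epcam at chr17:87635729-87636028 (plus strand), F11r at chr1:171437311-171437610 (plus), Cldn1 at chr16:26371790-26372089 (minus) and Cgn at chr3:94786433-94786732 (minus).
Epcam: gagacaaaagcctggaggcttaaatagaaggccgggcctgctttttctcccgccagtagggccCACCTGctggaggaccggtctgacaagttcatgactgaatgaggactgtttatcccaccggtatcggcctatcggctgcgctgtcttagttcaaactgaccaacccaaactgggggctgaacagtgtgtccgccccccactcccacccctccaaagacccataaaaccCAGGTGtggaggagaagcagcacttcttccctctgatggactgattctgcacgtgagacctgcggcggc
F11r: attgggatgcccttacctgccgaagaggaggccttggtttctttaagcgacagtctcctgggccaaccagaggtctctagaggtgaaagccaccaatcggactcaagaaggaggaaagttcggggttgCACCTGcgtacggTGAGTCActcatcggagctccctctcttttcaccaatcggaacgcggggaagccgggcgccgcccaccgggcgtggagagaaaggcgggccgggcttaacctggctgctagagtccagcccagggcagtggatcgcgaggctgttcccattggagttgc
Cldn1: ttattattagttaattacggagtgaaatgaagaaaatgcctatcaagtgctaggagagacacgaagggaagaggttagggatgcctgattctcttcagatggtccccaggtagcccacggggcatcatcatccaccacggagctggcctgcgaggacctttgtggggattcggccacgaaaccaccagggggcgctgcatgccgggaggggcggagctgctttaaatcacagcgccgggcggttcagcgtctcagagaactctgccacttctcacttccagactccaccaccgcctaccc
Cgn: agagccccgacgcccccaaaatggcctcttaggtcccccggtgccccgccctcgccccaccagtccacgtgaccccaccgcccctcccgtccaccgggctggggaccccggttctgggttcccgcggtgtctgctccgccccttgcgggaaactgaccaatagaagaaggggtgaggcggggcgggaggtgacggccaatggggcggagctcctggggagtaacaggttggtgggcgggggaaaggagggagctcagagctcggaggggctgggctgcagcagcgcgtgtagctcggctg
The Epcam window holds CACCTG on the plus strand from base −187 and on the minus strand from base −19, counted from the start site. The F11r window holds CACCTG from base −122 and TGANTCA from base −109. The Cldn1 and Cgn windows hold no match. Elsewhere, Cldn4 has CACCTG from base −14 and, on the minus strand, from base 12, and TGANTCA from bases −240 and −158. The second Cldn7 window and both Ocln windows hold CACCTG, and the Tjp1 window holds no match. These are letter matches and not measured binding sites.

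In control epidermis Cdh1 was the highest of the 10 genes when levels were set per length of exon. It had 157.7 ± 22.5 CPM per kilobase (SD, n = 3) in SmoM2 Con, 142.3 ± 19.5 in Gnas-eKO Con and 154 ± 8.89 in PKI Con. Cldn1, the claudin needed for the skin water barrier, came next with 70.7 to 79.6 CPM per kilobase as Con means. Epcam (39.8 to 52.7), Cldn4 (35.1 to 49.97) and F11r (40.4 to 42.3) followed. Their libraries overlapped in PKI Con. In Gnas-eKO Con all Epcam libraries lay above those of Cldn4 and F11r, and in SmoM2 Con above those of F11r. Cdh3 had 29.6 to 31.5 CPM per kilobase and overlapped with Cldn4 in SmoM2 and Gnas-eKO Con. Tjp1 had 14.3 to 17.2, and Ocln (7.81 to 8.82) and Cgn (5.20 to 7.70) lay lowest among the genes detected throughout, within 1 SD of each other in SmoM2 Con. Cldn7 was almost absent, at 0 to 0.0616 CPM per kilobase in the Con libraries. In BCC the order shifted: Epcam stood at 88.5 ± 13.7 CPM per kilobase in SmoM2 BCC (SD, n = 4), 118.2 ± 43.4 in Gnas-eKO BCC, level with Cldn1 at 116.2 ± 30.1, and 69.2 ± 14.4 in PKI BCC.

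**Figure D1:**
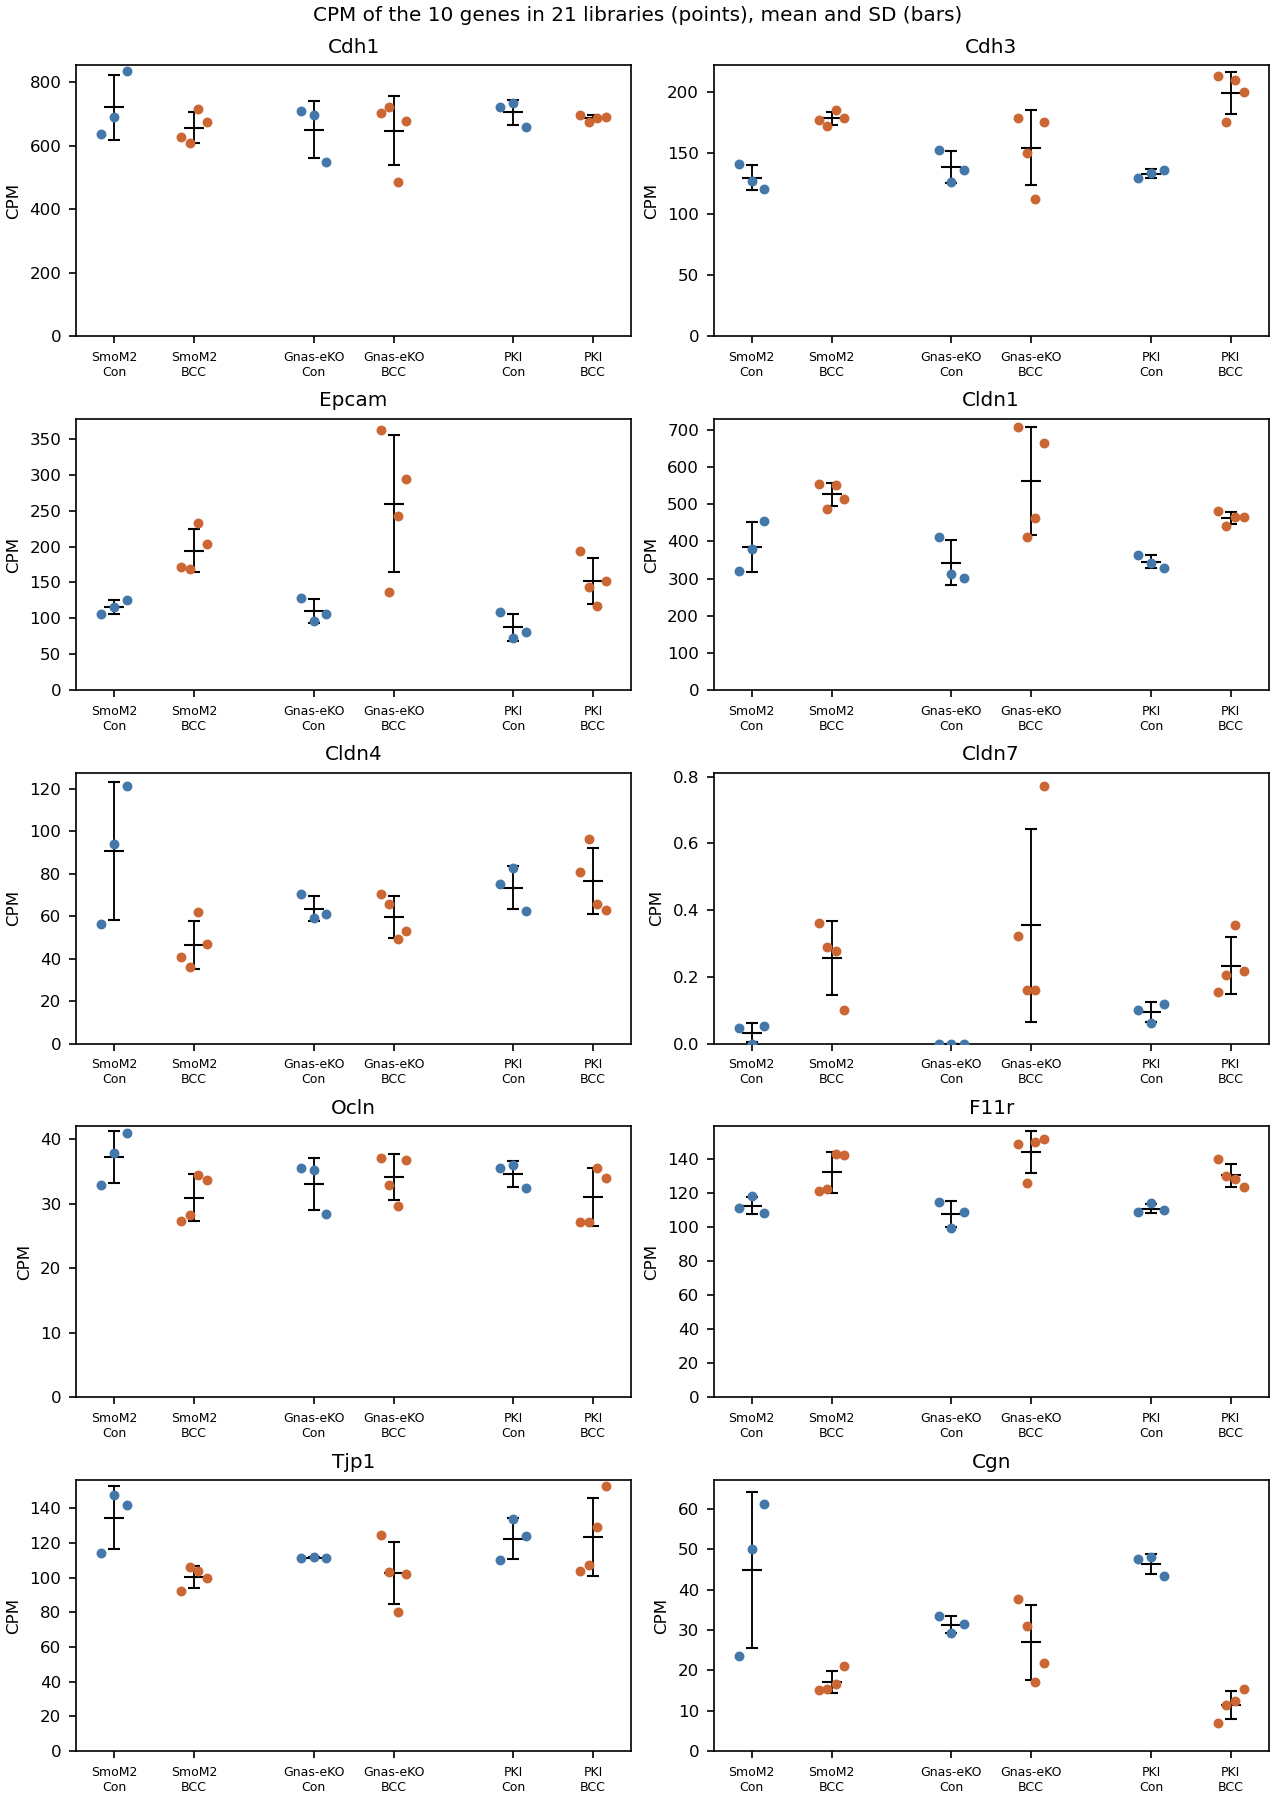
CPM (linear axes from 0) of the 10 genes in each library (points; blue Con, orange BCC), with the mean and SD of 3 Con and 4 BCC libraries per model. Epcam, Cldn1, F11r and, near the limit of counting, Cldn7 lie above Con in BCC of all 3 models. Cdh1 overlaps in each, and Cgn falls to between 6.93 and 15.4 CPM in PKI BCC.

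With a model fitted across all genes (edgeR's quasi-likelihood test, Benjamini-Hochberg adjusted p under 0.05), 4 of the 10 genes rose in SmoM2 BCC (Cdh3, Epcam, Cldn1 and F11r) and 3 fell (Cgn, Cldn4 and Tjp1). Of all 16370 genes tested there, 16.2% were called higher and 13.5% lower. In PKI BCC the same 4 names rose and 1 fell (Cgn), against 18.7% called higher and 15.8% lower of 16397 genes. In Gnas-eKO BCC 0 of the 10 passed, against 1.46% called higher and 0.165% lower of 16409 genes. There, 3 genes had an unadjusted p under 0.05 (Epcam, Cldn1 and F11r), as did 3212 genes in all. With DESeq2 4 of the 10 passed there, against 8.32% of 18507 genes called in either direction by that test. Without BCC replicate 2, 3 of the 9 genes tested rose in edgeR (Epcam, Cldn1 and F11r), against 7.36% called higher and 4.43% lower of 16195 genes. Leaving out another Gnas-eKO library gave fewer calls over all genes than leaving out replicate 2. In either direction, 0, 0 and 4 genes passed in edgeR without Con replicates 1, 2 and 3. Without BCC replicates 1, 3 and 4, 38, 291 and 59 passed. Cldn7 was too low to be tested, so 9 of the 10 passed the filter on low counts. The median log2 fold changes of these 9 in SmoM2, Gnas-eKO and PKI were −0.12, 0.057 and 0.072, and those of all genes tested were 0.00054, 0.020 and −0.0012. In bulk libraries, fewer cells of a type and less RNA per cell cannot be told apart. The share of all genes whose BCC and Con libraries do not overlap is not given here. Statements that the groups of a gene did not overlap are therefore descriptions only.

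**Figure D2:**
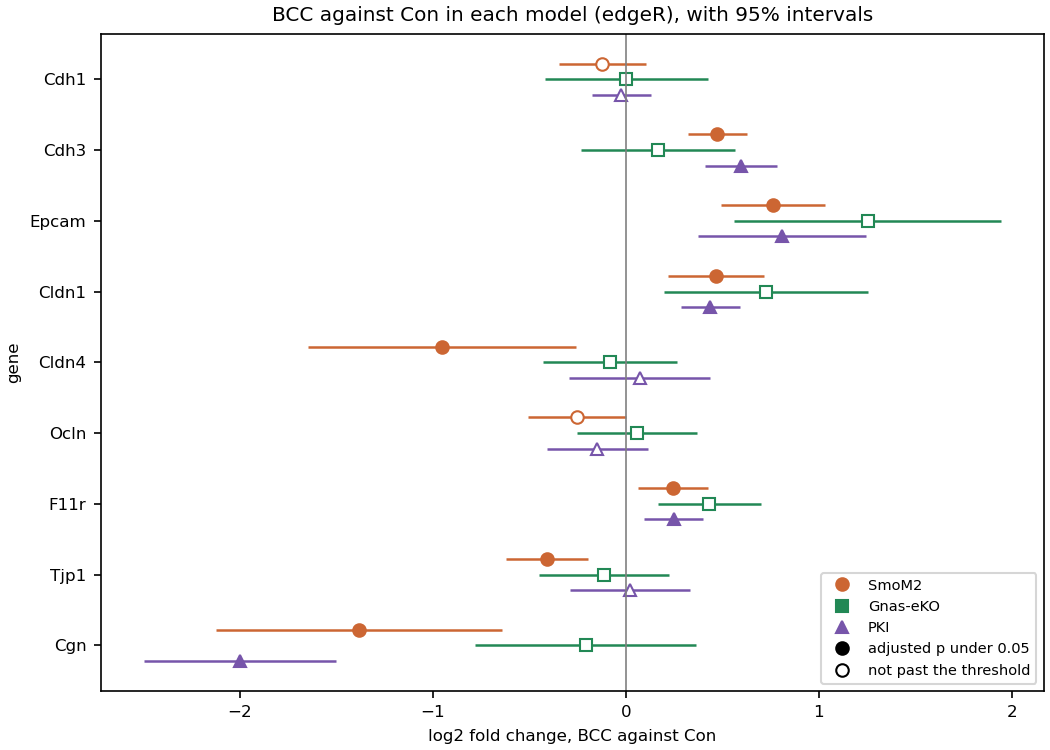
Log2 fold change of BCC against Con for the 9 genes tested, with 95% intervals, in SmoM2 (circles), Gnas-eKO (squares) and PKI (triangles). Filled symbols had an edgeR adjusted p under 0.05, for 7 genes with SmoM2, 5 with PKI and 0 with Gnas-eKO.

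Cdh1 (ENSMUSG00000000303.12, GRCm38 chromosome 8, 106603351 to 106670246, plus strand) gave no call in any model. Its CPM were 637, 692 and 836 in SmoM2 Con and 628, 609, 717 and 673 in SmoM2 BCC. They were 709, 696 and 548 in Gnas-eKO Con against 703, 722, 486 and 679 in BCC, and 722, 733 and 658 in PKI Con against 697, 675, 688 and 689 in BCC. Con and BCC overlapped in each model. The log2 fold changes were −0.12 (95% interval −0.35 to 0.10), 0.0021 (−0.42 to 0.42) and −0.024 (−0.18 to 0.13), with edgeR adjusted p of 0.411, 0.998 and 0.813. The Gnas-eKO value without BCC replicate 2 was −0.049 (edgeR adjusted p 0.906). The intervals leave room for a small difference in SmoM2 and PKI and a wider one in Gnas-eKO.

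Cdh3 (ENSMUSG00000061048.8, chromosome 8, 106510891 to 106557297, plus strand) ends 46053 bases before Cdh1 begins, on the same strand. In SmoM2 it had 141, 127 and 121 CPM in Con and 177, 172, 185 and 178 in BCC, a rise of 0.47 on the log2 scale (SE 0.07, edgeR adjusted p 0.000694). In PKI it had 129, 133.5 and 136 CPM in Con and 212, 175, 209.8 and 200.1 in BCC, a rise of 0.60 (SE 0.08, edgeR adjusted p 0.000958). All 4 BCC libraries lay above the 3 Con libraries in both models. In Gnas-eKO, where Con had 153, 126 and 136 CPM and BCC 179, 149.9, 113 and 175, the groups overlapped and the log2 fold change was 0.17 (95% interval −0.23 to 0.56, edgeR adjusted p 0.652), and 0.19 (adjusted p 0.603) without BCC replicate 2.

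The balance of the 2 cadherins was described as Cdh3 counts per 100 Cdh1 counts in the same library, which scaling between libraries does not touch. The SmoM2 Con libraries had 18.3 ± 3.83 (SD, n = 3), and their BCC counterparts 27.2 ± 1.22 (SD, n = 4). The Gnas-eKO values were 21.5 ± 3.32 and 23.8 ± 2.33, and those of PKI 18.9 ± 1.53 and 29.0 ± 2.15. The BCC libraries lay above Con in SmoM2 (25.8 to 28.3 against 14.5 to 22.1) and PKI (25.9 to 30.5 against 17.9 to 20.7) and overlapped with it in Gnas-eKO (20.8 to 25.8 against 18.2 to 24.8). The mean log2 difference between Cdh3 and Cdh1 was 0.59, 0.15 and 0.61 higher in BCC than in Con. It was not tested, since both genes were chosen together.

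**Figure D3:**
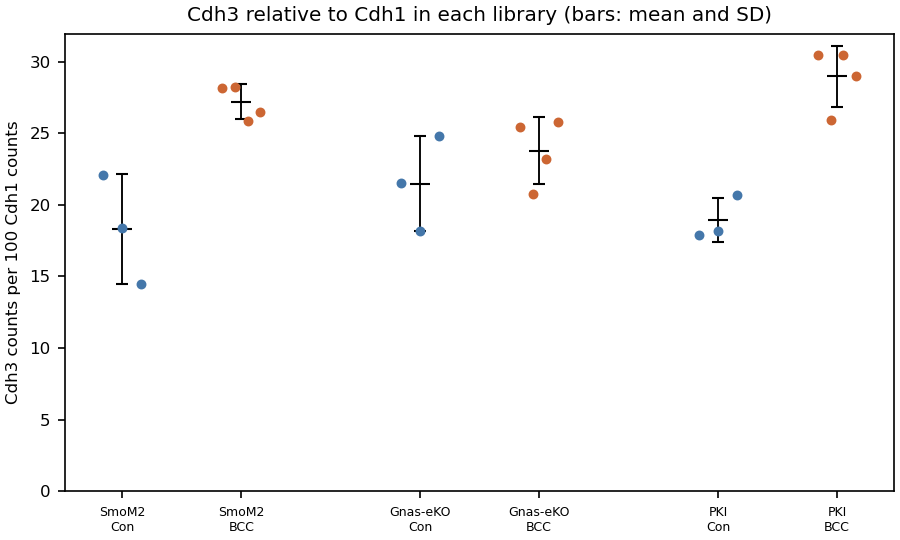
Cdh3 counts per 100 Cdh1 counts in each library (points; linear axis from 0; blue Con, orange BCC), with mean and SD per group. SmoM2 and PKI BCC lie at 25.8 or more and their Con at 22.1 or less, whereas the Gnas-eKO groups overlap.

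Among other adherens junction genes (16 listed, 15 or 16 tested per model), 3 rose and 3 fell in SmoM2 BCC, 0 passed in Gnas-eKO BCC (edgeR) and 3 rose and 2 fell in PKI BCC. These are 18.8% of the genes tested in each direction in SmoM2, and 20.0% higher and 13.3% lower in PKI, near the shares of all genes called there (16.2% and 13.5% in SmoM2, 18.7% and 15.8% in PKI). In Gnas-eKO 2 rose and 3 fell without BCC replicate 2 (13.3% and 20.0%, beside 7.36% and 4.43% of all genes). The list medians with all libraries were −0.12, −0.070 and 0.073 on the log2 scale. Ctnnb1, which encodes beta-catenin, rose in SmoM2 by 0.63 (SE 0.08, adjusted p 0.000320 in edgeR) and in PKI by 0.47 (SE 0.07, adjusted p 0.000916), and for Gnas-eKO its log2 fold change was 0.59 (SE 0.20, adjusted p 0.156), or 0.70 (adjusted p 0.0444) without BCC replicate 2. Its exons share bases with Ulk4, a gene of the opposite strand, which makes its count uncertain. Jup, which encodes plakoglobin and can take the place of beta-catenin on cadherin tails, fell in SmoM2 by 0.63 (SE 0.08, adjusted p 0.000441 in edgeR), from 2319 ± 214 CPM (SD, n = 3) to 1488 ± 90.6 (SD, n = 4). The value for Gnas-eKO was −0.57 (SE 0.23, adjusted p 0.224), or −0.76 (adjusted p 0.0402) without BCC replicate 2, and that for PKI −0.12 (SE 0.10, adjusted p 0.362). The Jup effect differed between PKI and SmoM2 by 0.50 (SE 0.13, edgeR adjusted p 0.0113). Plekha7, a p120-catenin partner, rose by 0.56 in SmoM2 (edgeR adjusted p 0.00514), and its Gnas-eKO value was 0.61 (adjusted p 0.0720) with all libraries and 0.70 (adjusted p 0.0134) without BCC replicate 2. In PKI, Nectin3, an immunoglobulin-type adhesion molecule, rose by 1.64 (edgeR adjusted p 0.00585), Vcl, which encodes vinculin, rose by 0.67 (adjusted p 0.000738), though its exons share bases with Ap3m1, a gene of the opposite strand, and Cdh4, the R-cadherin gene, fell by 1.78 from a mean of 7.29 to 2.09 CPM (adjusted p 0.00668). The Cdh4 value for Gnas-eKO was −1.06 (edgeR adjusted p 0.559) with all libraries, and −2.67 (adjusted p 0.0154) without BCC replicate 2. Cdh2, the N-cadherin gene, was at group means of 0.294 to 0.497 CPM in all 6 groups.

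Epcam (ENSMUSG00000045394.9, chromosome 17, 87635979 to 87651129, plus strand) showed the largest rises of the 9 genes. In SmoM2 it had 105, 116 and 125.5 CPM in Con and 172, 169, 233 and 203 in BCC, 1.70-fold higher by the fit (log2 0.76, SE 0.12, edgeR adjusted p 0.00144). In PKI it had 108, 72.8 and 81.3 CPM in Con and 194, 144, 117 and 152 in BCC, 1.75-fold higher (log2 0.81, SE 0.19, edgeR adjusted p 0.0125). In both models every BCC library was above every Con library. In Gnas-eKO, Con had 128, 95.7 and 106 CPM and BCC had 363, 137, 243 and 295. The groups did not overlap there either, with a log2 fold change of 1.25 (SE 0.30) and an edgeR adjusted p of 0.0794. The lowest BCC value, 137 CPM, belonged to replicate 2. Without that library the log2 fold change was 1.47 (edgeR adjusted p 0.00377). With all libraries kept, it passed in 2 of 6 alternatives, DESeq2 (adjusted p 0.00158) and an edgeR fit over the 21 libraries, and the adjusted p over the 6 ranged from 0.00158 to 0.0949.

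Langerhans cells, the dendritic cells of epidermis, also carry EpCAM, so their markers (Cd207, Cd74, H2-Aa, H2-Ab1, H2-Eb1 and Itgax) are given beside it. In PKI BCC 6 of the 6 rose, beside 18.7% of all genes, and their summed level was 416 to 891 CPM against 50.5 to 173 in PKI Con. How far this moved Epcam was not tested. In SmoM2 0 of the 6 passed (edgeR, beside 16.2% of all genes called higher and 13.5% lower), and the sums overlapped, with 77.5 to 167 CPM in BCC and 108 to 144 in Con, while Epcam did not overlap. In Gnas-eKO 0 of the 6 passed (edgeR) as well, beside 1.46% and 0.165% of all genes, with 141 to 423 CPM in BCC and 121 to 182 in Con. The highest sum there came from BCC replicate 1, which was also the highest for Epcam. None of the 6 markers was at 0 in any library. Cd207, which encodes langerin, was at 1.41 to 6.85 CPM in SmoM2 BCC and 4.36 to 6.65 in SmoM2 Con.

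**Figure D4:**
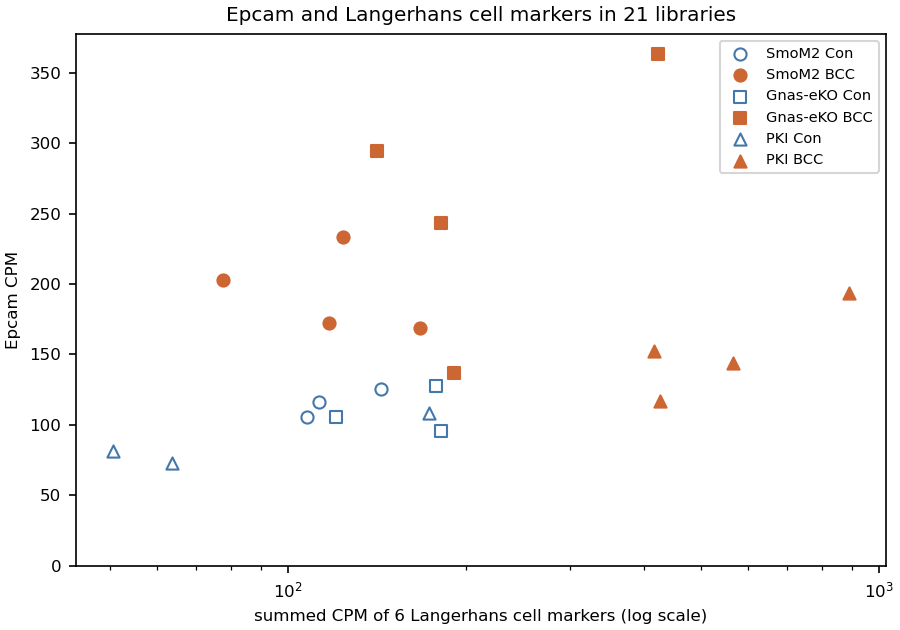
Epcam CPM (linear axis from 0) against the summed CPM of 6 Langerhans cell markers (log axis) in 21 libraries; open symbols Con, filled BCC; circles SmoM2, squares Gnas-eKO, triangles PKI. SmoM2 BCC lies above SmoM2 Con at overlapping marker sums, and PKI BCC lies at sums of 416 to 891 CPM.

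Of 6 genes that act on EpCAM or share its membrane complexes, 2 rose in SmoM2 BCC, 0 passed in Gnas-eKO BCC (edgeR), and 3 rose and 1 fell in PKI BCC. Of all genes 16.2% rose in SmoM2, and 18.7% rose and 15.8% fell in PKI. Cd44, the hyaluronan receptor, rose in SmoM2 by 0.24 (adjusted p 0.0476 in edgeR) and in PKI by 0.95 (adjusted p 0.000141), and it was the 1 gene of the list called in Gnas-eKO without BCC replicate 2 (log2 0.84, edgeR adjusted p 0.0168, beside 7.36% of all genes called higher in that fit). St14, which encodes matriptase, a protease that cuts EpCAM, rose by 0.27 in SmoM2 (edgeR adjusted p 0.0443). In PKI its inhibitor gene Spint1 rose by 0.51 (edgeR adjusted p 0.0102) and Prss8, the gene of the protease prostasin, fell by 0.59 (adjusted p 0.00497). Prss8 shares exon bases with Kat8, on the opposite strand.

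Cldn1 (ENSMUSG00000022512.3, chromosome 16, 26356642 to 26371841, minus strand) was the most abundant claudin in every group. In SmoM2 it had 321, 381 and 454 CPM in Con and 554, 488, 551 and 515 in BCC, a rise of 0.47 (SE 0.11, edgeR adjusted p 0.0111). In PKI it had 363, 343 and 329 CPM in Con and 482, 441.5, 466 and 465 in BCC, a rise of 0.44 (SE 0.07, edgeR adjusted p 0.00159). The BCC libraries lay above Con in both models. In Gnas-eKO, Con had 412, 313 and 302 CPM and BCC 707.5, 413, 464 and 666, again without overlap, and the log2 fold change of 0.73 (SE 0.23) had an edgeR adjusted p of 0.139. There the lowest BCC value, in replicate 2, lay less than 1 CPM above the highest Con value, and without replicate 2 the log2 fold change was 0.85 (edgeR adjusted p 0.0409).

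Cldn4 (ENSMUSG00000047501.3, chromosome 5, 134945119 to 134946934, minus strand), a claudin of the upper epidermal layers, fell in SmoM2 by 0.95 on the log2 scale (SE 0.29, edgeR adjusted p 0.0495). Con had 56.6, 94.2 and 121 CPM and BCC 40.7, 35.9, 62.1 and 47.0, so the groups overlapped through Con replicate 1 and BCC replicate 3. The call rests on narrow ground: over fits that each left out 1 library it passed in 2 of 7, and the adjusted p reached 0.148 without Con replicate 3. In Gnas-eKO its CPM were 70.6, 59.3 and 61.2 in Con and 70.4, 66.0, 49.2 and 53.2 in BCC (log2 fold change −0.082, edgeR adjusted p 0.812, and −0.13 with 0.671 without BCC replicate 2). In PKI they were 75.1, 82.8 and 62.7 in Con and 80.8, 96.6, 65.8 and 63.2 in BCC (log2 fold change 0.072, edgeR adjusted p 0.759). Groups overlapped in both.

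Cldn7 (ENSMUSG00000018569.12, chromosome 11, 69964779 to 69967885, plus strand), a claudin that binds EpCAM, had 0 to 2 counts in each of the 9 Con libraries and 2 to 16 in each of the 12 BCC libraries. Within each model BCC lay above Con. The counts were 2 to 8 against 0 to 1 in SmoM2, 3 to 16 against 0 in Gnas-eKO and 3 to 8 against 1 to 2 in PKI. At this depth 3 counts in a library correspond to 0.133 to 0.189 CPM, so most of these values lie near the limit of counting. Without a filter on low counts edgeR gave adjusted p of 0.0701, 0.0930 and 0.284 for SmoM2, Gnas-eKO and PKI. DESeq2 gave 0.106, 0.0200 and 0.381.

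Ocln (ENSMUSG00000021638.12, chromosome 13, 100496507 to 100552718, minus strand), the occludin gene, lay between 27.1 and 40.9 CPM in all 21 libraries, and Con and BCC overlapped in each model. The SmoM2 log2 fold change was −0.25 (95% interval −0.51 to −0.00051, adjusted p 0.123 in edgeR), that of Gnas-eKO 0.057 (−0.25 to 0.37, adjusted p 0.857; without BCC replicate 2, 0.079 and 0.786) and that of PKI −0.15 (−0.41 to 0.11, adjusted p 0.354).

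F11r (ENSMUSG00000038235.4, chromosome 1, 171437535 to 171464603, plus strand) encodes junctional adhesion molecule A. Its CPM were 112, 118 and 108.5 in SmoM2 Con and 121, 122, 143 and 142 in SmoM2 BCC (a rise of 0.24, SE 0.08, edgeR adjusted p 0.0450). They were 109, 114 and 110.1 in PKI Con and 140.1, 130.1, 128 and 124 in PKI BCC (a rise of 0.25, SE 0.07, edgeR adjusted p 0.0211). The BCC libraries lay above Con, by small margins. The SmoM2 call was lost in 6 of 6 alternative analyses (adjusted p 0.0505 to 0.174) and the PKI call in 4 of 7 fits that each left out 1 library (edgeR adjusted p up to 0.0889). In Gnas-eKO, Con had 115, 99.6 and 109 CPM and BCC 149, 126, 149.98 and 152, without overlap, and the log2 fold change was 0.43 (SE 0.12, adjusted p 0.0994 in edgeR). Without BCC replicate 2, the lowest of the 4, it was 0.49 (edgeR adjusted p 0.0285).

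Tjp1 (ENSMUSG00000030516.14, chromosome 7, 65296165 to 65527781, minus strand) encodes the scaffold ZO-1, which ties claudins and occludin to actin. It fell in SmoM2 by 0.41 (SE 0.09, adjusted p 0.00977 in edgeR), from 114, 148 and 142 CPM in Con to 92.0, 106, 104 and 99.5 in BCC, with no overlap. In Gnas-eKO it had 111 to 112 CPM in Con and 80.4 to 124 in BCC (log2 fold change −0.11, edgeR adjusted p 0.734, or 0.726 without BCC replicate 2). In PKI it had 110.1 to 133.5 CPM in Con and 104 to 153 in BCC (log2 fold change 0.019, edgeR adjusted p 0.928).

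Cgn (ENSMUSG00000068876.14, chromosome 3, 94760069 to 94786492, minus strand), the gene of the plaque protein cingulin, had the largest falls of the 9 genes tested. In PKI it went from 47.6, 48.0 and 43.5 CPM in Con to 6.93, 11.3, 12.3 and 15.4 in BCC, 4.00-fold lower by the fit (log2 −1.999, SE 0.22, edgeR adjusted p 0.000461). In SmoM2 it went from 23.5, 50.1 and 61.1 CPM in Con to 15.1, 15.4, 16.7 and 21.1 in BCC, 2.60-fold lower (log2 −1.38, SE 0.31, edgeR adjusted p 0.0157). The groups did not overlap in either model, though SmoM2 Con replicate 1 lay close to BCC. Without SmoM2 Con replicate 2 the SmoM2 value had an edgeR adjusted p of 0.0522. In Gnas-eKO, Con had 33.4, 29.3 and 31.4 CPM and BCC 37.7, 31.1, 17.1 and 21.9. The groups overlapped, and the log2 fold change was −0.21 (95% interval −0.78 to 0.37, adjusted p 0.706 in edgeR). It was −0.28 (edgeR adjusted p 0.571) without BCC replicate 2.

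Cgnl1 (ENSMUSG00000032232.14, chromosome 9, 71626509 to 71771602, minus strand) encodes paracingulin, the cingulin relative found at both adherens and tight junctions. It moved opposite to Cgn in SmoM2, from 17.9, 17.2 and 27.1 CPM in Con to 165, 169, 175 and 162 in BCC (log2 3.03, SE 0.16, edgeR adjusted p 4.39e-06). In Gnas-eKO it rose from 22.7, 18.9 and 24.7 CPM to 158, 63.5, 122 and 195 (log2 2.62, SE 0.36, edgeR adjusted p 0.0207). Replicate 2 was again the BCC library nearest to Con, and without it the value was 2.85 (edgeR adjusted p 0.000417). The Gnas-eKO call was lost without Con replicate 1 and without Con replicate 2, fits in which 0 genes of any kind passed in edgeR. In PKI the groups overlapped, with 29.5, 20.2 and 21.7 CPM in Con and 30.7, 23.0, 48.6 and 53.5 in BCC (log2 0.72, SE 0.30, edgeR adjusted p 0.108). The Cgnl1 effect in PKI minus that in SmoM2 was −2.30 (SE 0.37, edgeR adjusted p 0.00111), and minus that in Gnas-eKO it was −1.89 (SE 0.48, edgeR adjusted p 0.0289). Per length of exon, the Cgnl1 level divided by that of Cgn was 0.397 ± 0.169 over the SmoM2 Con libraries (SD, n = 3), against 7.69 ± 1.21 over SmoM2 BCC (SD, n = 4). The Gnas-eKO ratios were 0.541 ± 0.0561 and 4.27 ± 2.33, and those of PKI 0.394 ± 0.0764 and 2.66 ± 0.798. BCC lay above Con in each model (at least 5.89, 1.57 and 1.56 against at most 0.587, 0.604 and 0.475). This ratio was chosen after the values of both genes were seen and was not tested.

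**Figure D5:**
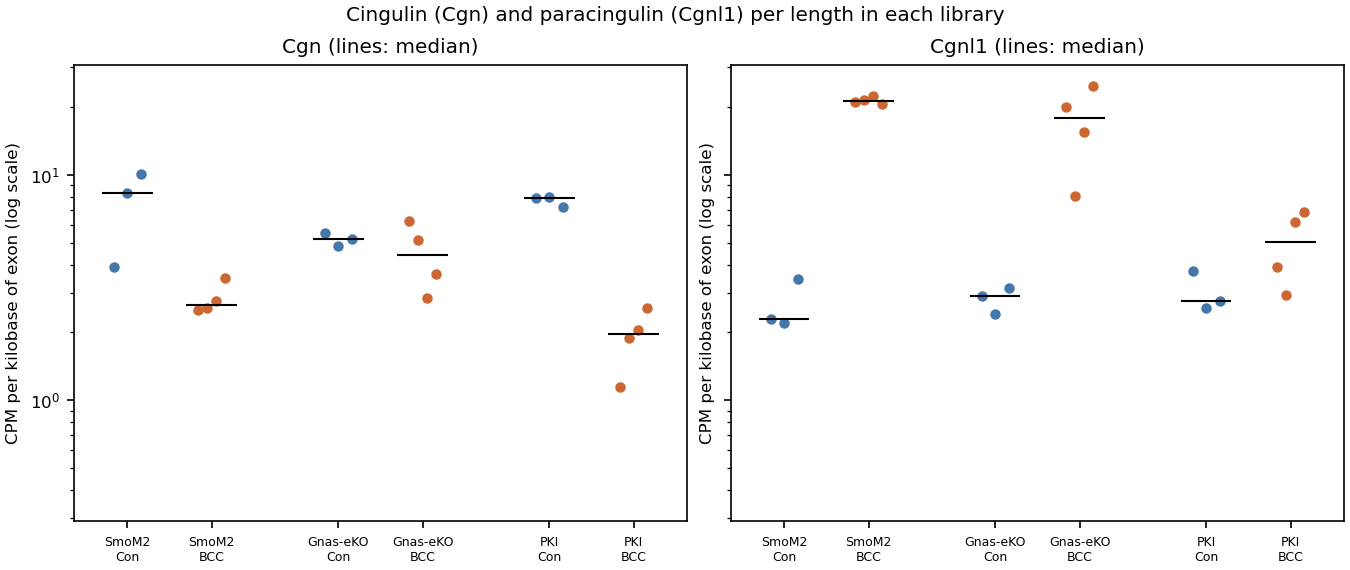
CPM per kilobase of exon (log axis, shared by both panels) of Cgn and Cgnl1 in each library (points; blue Con, orange BCC), with the median of each group as a line. Cgnl1 lies above Con in SmoM2 and Gnas-eKO BCC and overlaps with it in PKI, while Cgn lies below Con in SmoM2 and PKI BCC.

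Of 28 other tight junction genes listed, 26 were in the table and 22 to 23 were tested. In SmoM2 BCC 3 rose and 6 fell, in Gnas-eKO BCC 1 rose and 0 fell, and in PKI BCC 4 rose and 5 fell. In SmoM2 this is 13.6% higher and 27.3% lower, beside 16.2% and 13.5% of all genes, and in Gnas-eKO 4.55% higher, beside 1.46%. Without BCC replicate 2 the Gnas-eKO shares were 9.09% in each direction, 2 of 22 genes, beside 7.36% and 4.43%. In PKI it is 17.4% higher and 21.7% lower, not far from 18.7% and 15.8% of all genes. The list medians were −0.23, 0.13 and −0.10 on the log2 scale. Tjp3, which encodes the scaffold ZO-3, fell in SmoM2 by 1.10 (SE 0.13, adjusted p 0.000273 in edgeR) and in PKI by 1.03 (SE 0.14, adjusted p 0.000875). For Gnas-eKO the value was −0.91 (SE 0.18, adjusted p 0.0505), or −1.10 (adjusted p 0.00134) without BCC replicate 2, with all BCC libraries below Con. Its exons share bases with Apba3, a gene of the opposite strand. Magi1, a junctional scaffold with PDZ domains, rose in SmoM2 by 1.36 (SE 0.31, adjusted p 0.0165 in edgeR). Its Gnas-eKO value was 0.69 (edgeR adjusted p 0.162) with all libraries and 0.87 (adjusted p 0.0125) without BCC replicate 2.

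The other claudin genes were far below Cldn1. Cldn8 fell in SmoM2 by 0.94 (adjusted p 0.00905 in edgeR) and in PKI by 1.12 (adjusted p 0.00243), between 2.89 and 15.3 CPM over all libraries. For Gnas-eKO it had 0.46 (edgeR adjusted p 0.606) with all libraries and 0.67 (adjusted p 0.314) without BCC replicate 2. Cldn23 fell by 2.12 in PKI (SE 0.29, edgeR adjusted p 0.00107), from 14.5 to 21.6 CPM in Con to 2.21 to 5.57 in BCC. Its SmoM2 value was −1.39 (adjusted p 0.0583) and its Gnas-eKO value −0.50 (adjusted p 0.543), or −0.69 (adjusted p 0.342) without BCC replicate 2. Cldn12 lay at 22.6 to 44.0 CPM and Cldn3 at 0.579 to 3.00 CPM over all libraries, and neither passed in any model (edgeR adjusted p of at least 0.142 and 0.419). Jam2 fell in PKI at levels of 0.600 to 1.199 CPM in Con and 0.0548 to 0.310 in BCC (edgeR adjusted p 0.00670).

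Of 12 activators and splicing factors of epithelial genes, 1 rose and 6 fell in SmoM2 BCC, 0 passed in Gnas-eKO BCC (edgeR), and 3 rose and 4 fell in PKI BCC. Of all genes 16.2% rose and 13.5% fell in SmoM2, and 18.7% rose and 15.8% fell in PKI. In Gnas-eKO 4 of the 12 fell without BCC replicate 2 (33.3%, beside 4.43% of all genes) and 0 rose (edgeR). They were Grhl3 (−1.13, edgeR adjusted p 0.00370), Klf4 (−0.95, adjusted p 0.00834), Esrp1 (−0.67, adjusted p 0.0301) and Esrp2 (−0.55, adjusted p 0.0244). With all libraries Grhl3, Klf4 and Esrp2 had edgeR adjusted p of 0.0952, 0.133 and 0.225, and Esrp1 did not pass either. Medians with all libraries were −0.60, −0.29 and −0.14. Grhl3, a Grainyhead-like factor of epidermal barrier formation, fell in SmoM2 by 1.22 (SE 0.19, adjusted p 0.00213 in edgeR). Ovol1 fell there by 0.92 (edgeR adjusted p 0.00643), Klf4, a factor of terminal differentiation, by 0.87 (adjusted p 0.000403) and Esrp2, an epithelial splicing factor, by 0.68 (adjusted p 0.000273). In PKI Elf3, an epithelial ETS factor, rose by 3.25 (SE 0.39, edgeR adjusted p 0.000492) at 4.17 to 10.9 CPM in BCC, and its relative Ehf rose by 1.01 (adjusted p 0.00627). Ovol2 fell in PKI by 0.78 (edgeR adjusted p 0.0134) and Klf4 by 0.54 (adjusted p 0.00861). Ovol1, Esrp1, Esrp2, Elf3 and Ovol2 share exon bases with genes of the opposite strand, so their counts are uncertain.

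Of 9 repressors and partner genes of mesenchymal transition, 6 were tested. In SmoM2 BCC 1 rose, in Gnas-eKO BCC 1, in PKI BCC 3, and 0 fell in any model (edgeR). The share that rose in SmoM2 and in Gnas-eKO was 16.7%, beside 16.2% and 1.46% of all genes, and 18.7% of all genes rose in PKI. The medians were 0.25, 0.75 and 1.63. Twist2 rose in SmoM2, from at most 0.0918 CPM in Con to 1.01 to 2.67 in BCC (edgeR adjusted p 0.000496), and in PKI, from at most 0.101 to 0.413 to 1.21 CPM (adjusted p 0.00612). Twist2 shares exonic bases with an antisense gene, Gm29100, as Zeb1 and Fn1 do with other genes of the opposite strand. Zeb1, a repressor of Cdh1, rose in PKI by 2.47 (edgeR adjusted p 0.00446) at 0.774 to 1.69 CPM in BCC. Vim, the vimentin gene, rose there by 2.21 (edgeR adjusted p 0.00343), from 16.2 to 31.4 CPM to 63.7 to 139. Fn1, the fibronectin gene, rose in Gnas-eKO by 3.05 (SE 0.49, adjusted p 0.0309 in edgeR), and by 2.95 (adjusted p 0.0110) without BCC replicate 2. The Fn1 call was lost without Con replicate 1 and without Con replicate 2, where 0 of all genes passed in edgeR. These are also genes of fibroblasts and leukocytes. Of 6 fibroblast markers 2, 1 and 3 rose in SmoM2, Gnas-eKO and PKI, with summed levels of 387 to 525, 94.2 to 579 and 84.4 to 145 CPM in BCC against 15.8 to 43.5 in all Con libraries. In Gnas-eKO 5 of the 6 rose once BCC replicate 2 was left out, beside 7.36% of all genes, and that library had the highest fibroblast sum of its group (579 CPM). Dcn, the decorin gene, held most of the sum, and Lum was at 0 in some Con libraries. Of 8 other leukocyte markers 4 rose in PKI, with sums of 38.4 to 53.5 CPM in BCC against 20.6 to 25.4 in Con. Their part in these rises was not tested.

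Markers of the epidermal layers also changed. The shares of all genes that rose and fell were 16.2% and 13.5% for SmoM2, 1.46% and 0.165% for Gnas-eKO, and 18.7% and 15.8% for PKI. Of 10 suprabasal keratinocyte markers 7 fell and 0 rose in SmoM2 BCC, 0 passed in Gnas-eKO BCC (edgeR), and 4 fell and 1 rose in PKI BCC. Of 10 basal markers 5 fell and 1 rose in SmoM2, 0 passed in Gnas-eKO (edgeR) and 6 fell in PKI. Of the hair germ and placode markers, 5 of 6 tested rose and 1 fell in SmoM2, 1 of 6 rose in Gnas-eKO, and 4 of 7 rose and 1 fell in PKI. Without BCC replicate 2, 3 suprabasal and 3 basal markers fell and 5 hair germ and placode markers rose in Gnas-eKO, beside 4.43% of all genes called lower and 7.36% higher in that fit. Replicate 2 was set apart by its low hair germ sum and by its place on the first principal component of all expressed genes. None of these counts is therefore independent of leaving it out, the last least of all. Summed basal markers did not overlap in any model: they ranged from 23365 to 25354 CPM in SmoM2 BCC against 31152 to 40466 in Con, from 16578 to 33816 in Gnas-eKO BCC against 36641 to 40073, and from 29687 to 32210 in PKI BCC against 35106 to 40241. The highest of these Gnas-eKO BCC sums was that of replicate 2. A sum of CPM gives most weight to the most abundant markers, so it does not show that each basal marker fell. The log2 fold change was above 0 for 3 of the 10 basal markers with SmoM2, 4 with Gnas-eKO and 0 with PKI. Summed suprabasal markers ranged from 16487 to 31595 CPM in SmoM2 BCC against 30813 to 44168 in Con, from 16764 to 28488 in Gnas-eKO BCC against 26768 to 34882, and from 15960 to 48311 in PKI BCC against 23929 to 40346 in Con. The suprabasal markers did not move alike in PKI. Krt1, a major keratin of the spinous layer, rose from a mean of 4162 to 14417 CPM (edgeR adjusted p 0.0414). Lor, the loricrin gene of the cornified envelope, fell from 622 to 842 CPM in Con to 81.6 to 201 in BCC (edgeR adjusted p 0.00122), and Sbsn, the suprabasin gene, from 2075 to 2504 CPM to 824 to 994 (edgeR adjusted p 9.01e-05). These 3 were named after their values were seen. The part of layer composition in the changes of Cgn, Cldn4, Tjp1 and Cdh3 was not tested. Of 5 melanocyte markers 2 fell in SmoM2 and 4 in PKI, of 6 endothelial markers 2 were tested and 1 rose in each model, and of 5 sebaceous markers 0 passed in any model (edgeR).

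The difference between BCC effects was tested for each pair of models, which is also a pair of batches and days. Between Gnas-eKO and SmoM2, 0 of the 9 genes tested passed (edgeR and DESeq2), and 2 had an unadjusted p under 0.05 (Cgn and Cldn4), against 0.0758% of 17151 genes called higher and 0.0991% lower in Gnas-eKO by edgeR and 1.02% in either direction by DESeq2. Between PKI and SmoM2, 0 of the 9 passed in edgeR and 1 in DESeq2, and 2 had an unadjusted p under 0.05 (Cldn4 and Tjp1), against 12.6% called higher and 12.3% lower of 17261 genes by edgeR and 26.1% in either direction by DESeq2. Between PKI and Gnas-eKO, 1 of the 9 passed and 2 had an unadjusted p under 0.05 (Cdh3 and Cgn), against 4.49% called higher and 4.57% lower of 17254 genes. The gene that passed was Cgn, whose effect in PKI minus that in Gnas-eKO was −1.79 on the log2 scale (SE 0.36, edgeR adjusted p 0.0101). It stayed past the threshold in 6 of 6 alternatives and in 14 of 14 fits that each left out 1 library. For Cdh3 the effect in PKI minus that in Gnas-eKO was 0.43 (SE 0.20, edgeR adjusted p 0.191). The Cgn effects of PKI and SmoM2 differed by −0.62 (SE 0.41, edgeR adjusted p 0.301). The Cldn4 effect was higher in PKI than in SmoM2 by 1.02 (SE 0.35) with an edgeR adjusted p of 0.0522, and it passed with DESeq2 (adjusted p 0.0118). Tjp1 differed between PKI and SmoM2 by 0.43 (SE 0.18, edgeR adjusted p 0.0938). For Epcam the differences were 0.49 (SE 0.34) between Gnas-eKO and SmoM2 and 0.045 (SE 0.24) between PKI and SmoM2, with edgeR adjusted p of 0.716 and 0.914, and intervals wide enough for moderate differences.

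Correlations between the genes over the 21 libraries were computed once the mean of each model's Con libraries had been taken off their log2 CPM. Pearson's r was 0.925 between Epcam and Cldn1, 0.912 between Epcam and F11r and 0.840 between Cldn1 and F11r. With Cldn7, which rests on few counts, it was 0.841 for Cldn1, 0.761 for Epcam and 0.733 for F11r, and between Cdh3 and Cldn1 it was 0.559. It was 0.688 between Cdh1 and Ocln, 0.656 between Ocln and Tjp1, 0.648 between Cldn4 and Tjp1 and 0.680 between Ocln and Cgn. Cgn was less close to Cldn4 (0.346), Cdh1 (0.389) and Tjp1 (0.416). Between Cdh3 and Cgn it was −0.754. Among 12028 genes compared, the pattern most like Epcam was that of Adcy7, an adenylyl cyclase gene (r 0.958), followed by Peli1 (0.946) and Dgkz (0.937). Cldn1 was most like Epcam itself, then Col14a1 (0.923) and Serinc5 (0.916), and F11r like Zfp637 (0.916), C1qtnf12 (0.914) and Phlda1 (0.914). Cgn was most like Arhgef37 (0.971), Lce1m, a cornified envelope gene (0.966), and 2310050C09Rik (0.966). Cldn4 was most like Ugcg, which makes the glucosylceramide of the barrier (0.943), Tgm1, the transglutaminase of the cornified envelope (0.921), and Nectin4 (0.912). Cdh3 was most like Nono (0.937), Knop1 (0.936) and Papss1 (0.918), and Tjp1 like Atp7a (0.922), Kif13b (0.901) and Ago2 (0.900). For Cdh1 and Ocln the closest, Dnajc5 and Adgrf2, reached 0.831 and 0.832. These values are descriptions over libraries that share groups and batches.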

How the data were processed

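Tail keratinocyte RNA of 21 libraries was analysed from tables the authors deposited: estimated counts per gene, of which 32.4% are not whole numbers, and a normalized signal, which is each count times a factor per library plus 0.001. Per the submitters' processing notes, bcl2fastq 2.20, cutadapt 1.18, STAR 2.7.0f, Partek and the build mm10 were used. The counting tool, its annotation and whether it used strand are not given in the sources used here, so exons shared with a gene on the other strand make a count uncertain. The smallest sum of a gene over the libraries is 10, and genes below it are not analysed here.

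Counts were rounded and tested in edgeR 4.0.16 (R 4.3.3) with filterByExpr, TMM scaling and the robust quasi-likelihood test within the 7 libraries of a model, or as an interaction over the 14 libraries of a pair, with Benjamini-Hochberg adjustment over all genes tested and a threshold of 0.05. Standard errors are the absolute log2 fold change over the square root of F. CPM come from TMM over the 21 libraries, log2 CPM use a prior count of 2, and lengths are exon unions of GENCODE M21 (GRCm38), in which 23048 genes were found by name. Positions are from GENCODE M21. Sums of markers are sums of CPM.

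Alternatives were DESeq2's size factors in edgeR, no filter, the DESeq2 1.42.0 Wald test, a joint fit of the 21 libraries, the replicate number as a block, limma 3.58.1 on log2 of the authors' normalized values plus 1, and leaving out each library in turn.

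Members, lists, markers and tests were chosen with earlier results of these data known. All 10 members are named, and of each other list at most the 3 or 4 called genes with the largest changes per model, plus Cdh2 and each tested claudin. Likeness was measured among genes tested in all models whose mean log2 CPM reached 2. Counting error limits values near 3 counts, and floors cover counting error only. No 2 libraries of a group agreed within sampling noise (smallest chi-square per degree of freedom 8.33). The headers give each library its own animal name, and p-values measure the spread between these samples.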

Additional observations from a re-analysis of the deposited data

Results flagged for a closer look

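F11r in Gnas-eKO BCC replicate 2 had 126 CPM, while the other 3 libraries of its group had 149, 149.98 and 152 CPM. Its gap to the nearest library was 0.886 of the range of the group, over the critical value of Dixon's test for 4 samples. Chance alone gives about 1 such library in 20 groups, and 30 pairs of gene and BCC group were examined.

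The Cgn effect of BCC against Con differed by −1.79 on the log2 scale between PKI and Gnas-eKO (PKI minus Gnas-eKO, SE 0.36, edgeR adjusted p 0.0101 for the interaction). Cgn was 4.00-fold lower in PKI BCC than in PKI Con, in 4 of 4 libraries, and had a log2 fold change of −0.21 in Gnas-eKO, where 2 of the 4 BCC libraries were below Con.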

How the results depend on the processing

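Of the 10 genes, 7 passed for SmoM2, 0 for Gnas-eKO and 5 for PKI, and over fits that each left out 1 library the counts were 4 to 6, 0 to 3 and 4 to 5. The lowest SmoM2 count came without Con replicate 2, and the highest Gnas-eKO count without BCC replicate 2. Of all genes tested, these fits called 21.5% and 11.8% in either direction. The other Gnas-eKO fits without 1 library called 0% to 1.81% of all genes. DESeq2 called 4 genes in Gnas-eKO (8.32% of all genes) and the joint fit of 21 libraries 3 (14.9%). Between PKI and SmoM2 0 were called (edgeR, 2 at an unadjusted p under 0.05), and 1 with DESeq2 (26.1% of all genes), 1 in the joint fit (16.9%), 1 with the replicate block (22.9%) and 0 to 2 without 1 library (19.2% to 25.8%). Between Gnas-eKO and SmoM2 the count was 0, and between PKI and Gnas-eKO 1, in each such fit. The cause was not tested. The replicate numbers are not stated to pair the samples, and deviations of same-numbered libraries correlated by −0.127 to 0.282, with no model above 0.1 in all 3 pairs. With the replicate block 6, 0 and 5 genes were called (20.9%, 0.823% and 36.5% of all genes), and the Cdh3 to Cdh1 difference was 0.60, 0.11 and 0.61. Without 1 library it was 0.43 to 0.74, 0.037 to 0.26 and 0.57 to 0.68.

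Values near 0 changed sign. Cdh1 in Gnas-eKO (0.0021) became −0.0020 with DESeq2's size factors, −0.0078 without a filter, −0.0058 with DESeq2, −0.0079 in the joint fit, −0.033 with the block and −0.017 with limma. With the block, Tjp1 in PKI became −0.10 and Cdh1 between PKI and Gnas-eKO 0.018. F11r between PKI and SmoM2 became −0.00099 with limma. Without 1 library, Cdh1, Ocln and Cldn4 in Gnas-eKO ranged from −0.11 to 0.12, −0.046 to 0.12 and −0.17 to 0.0032. Tjp1, Cdh1 and Cldn4 in PKI ranged from −0.098 to 0.086, −0.069 to 0.0066 and −0.072 to 0.17. Between PKI and SmoM2, Cldn1, F11r, Cdh1 and Epcam ranged from −0.16 to 0.090, −0.039 to 0.043, −0.019 to 0.18 and −0.093 to 0.23, and Cdh1 between PKI and Gnas-eKO from −0.14 to 0.091. Of 162 values of single genes in BCC against Con under the alternatives that kept all libraries, 140 kept direction and side of the threshold, 9 lost and 6 gained a call and 7 changed sign.

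The 9 losses were those of F11r (6 of 6) and Cldn4 (2 of 6) in SmoM2 and of Cldn1 in PKI in the joint fit (adjusted p 0.0526). Depth limits Cldn7 alone among the 10.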
